A study of Mus musculus with 8 samples.

Results

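The genes described here are 9 genes of heme synthesis and breakdown, read from 22180 genes measured in mouse liver. They were chosen by name and not by a rule on their values, although earlier results of these data were known. Of them 7 encode enzymes of synthesis (Alas1, Alad, Uros, Urod, Cpox, Ppox and Fech), Hmox1 encodes heme oxygenase, and Hpx encodes hemopexin, the heme scavenger of plasma. Each gene had a single probe set with 1 gene symbol, so all 9 could be followed.

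Livers were taken at 27 days of age from 8 mice of strain C57BL/6N, and each liver's total RNA was run on an array of its own. The 4 knockout mice had the genotype Albumin-Cretg/wt:Sco1fl/fl. In it a Cre recombinase driven by the albumin promoter deletes floxed Sco1 in hepatocytes and leaves it in liver cells that do not make the Cre. The titles and source names group 4 further mice as wild-type, although each carried at least 1 floxed allele: by genotype label, mice 1 and 3 were Albumin-Cretg/wt:Sco1fl/wt and mice 2 and 4 were Albumin-Crewt/wt:Sco1fl/fl. Sco1 is a mitochondrial copper chaperone needed to assemble cytochrome c oxidase, an enzyme that itself carries heme. No label gave sex, litter or time of collection, and nothing beyond the mouse numbers described how the animals were related.

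Heme is built in a chain that starts and ends in mitochondria. Alas1, the rate-limiting enzyme in liver, joins glycine and succinyl-CoA, the middle steps from Alad to Urod run in the cytosol, and Cpox, Ppox and Fech finish the ring and insert iron back in the mitochondrion. Hepatocytes use much of this heme for cytochrome P450 enzymes. Heme represses Alas1, and in excess it induces Hmox1, which opens the ring to biliverdin and frees iron.

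Values are RMA values on a log2 scale, so that 1 unit is a 2-fold difference. RMA corrects background, normalizes arrays to each other and summarises the probes of a set, and it pulls large differences toward 0. Levels of different genes are not set against each other, because probe sets differ in brightness. Differences are knockout minus wild-type with limma standard errors (SE, n = 4 mice a group), and adjusted p is limma's two-sided p after Benjamini-Hochberg adjustment over all 22180 genes, with a threshold of 0.05.

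Array medians lay between 5.79 and 5.89, and arrays of a group correlated across genes at 0.992 to 0.995. The hepatocyte genes Alb and Ttr had group means of 13.65 or more. Sco1 was measured at 7.48, 7.62, 7.72 and 7.56 in knockout mice 1 to 4 and at 7.84, 7.93, 8.19 and 8.04 in wild-type mice 1 to 4. The groups did not overlap, with a difference of -0.41 ± 0.09 (limma, adjusted p = 0.0633; two-sided exact permutation p = 0.0286, the smallest that 70 assignments allow). Both mice numbered 1 stood apart in clock genes, with Dbp at 9.66 and 9.86 against 6.87 to 7.33 in the other mice. Knockout mouse 4 stood apart in the mean of 3 Y-linked genes, at 7.36 against 8.60 to 8.86. In Xist, the RNA of the inactive X chromosome, it did not stand apart, at 5.01 against 4.59 to 5.06. Values without these arrays, singly or as a pair, are given for Alas1, Alad, Urod, Cpox, Ppox and Hmox1. They are also given for Nr1d1, Ppargc1a, Cox10, Serpina1a, Lyve1, genes of heme transport, and the macrophage and lymphocyte markers.

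None of the 9 heme genes passed the threshold in either direction, beside 1.15% of all genes (limma with Benjamini-Hochberg adjustment). At an unadjusted p under 0.05 there were 3 of 9, Urod, Ppox and Uros, all lower in the knockout, beside 16.7% of all genes in either direction and 8.06% lower. The groups did not overlap for 1 of 9, Urod, beside 10.7% of all genes in either direction and 5.49% with the knockout lower. The median difference was -0.05 over the 9 genes and -0.08 over the 7 enzymes of synthesis, against 0.03 over all genes and -0.02 over the brighter 11090 genes. With so few members, these shares describe the genes and are not a result about the pathway as a whole.

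**Figure D1:**
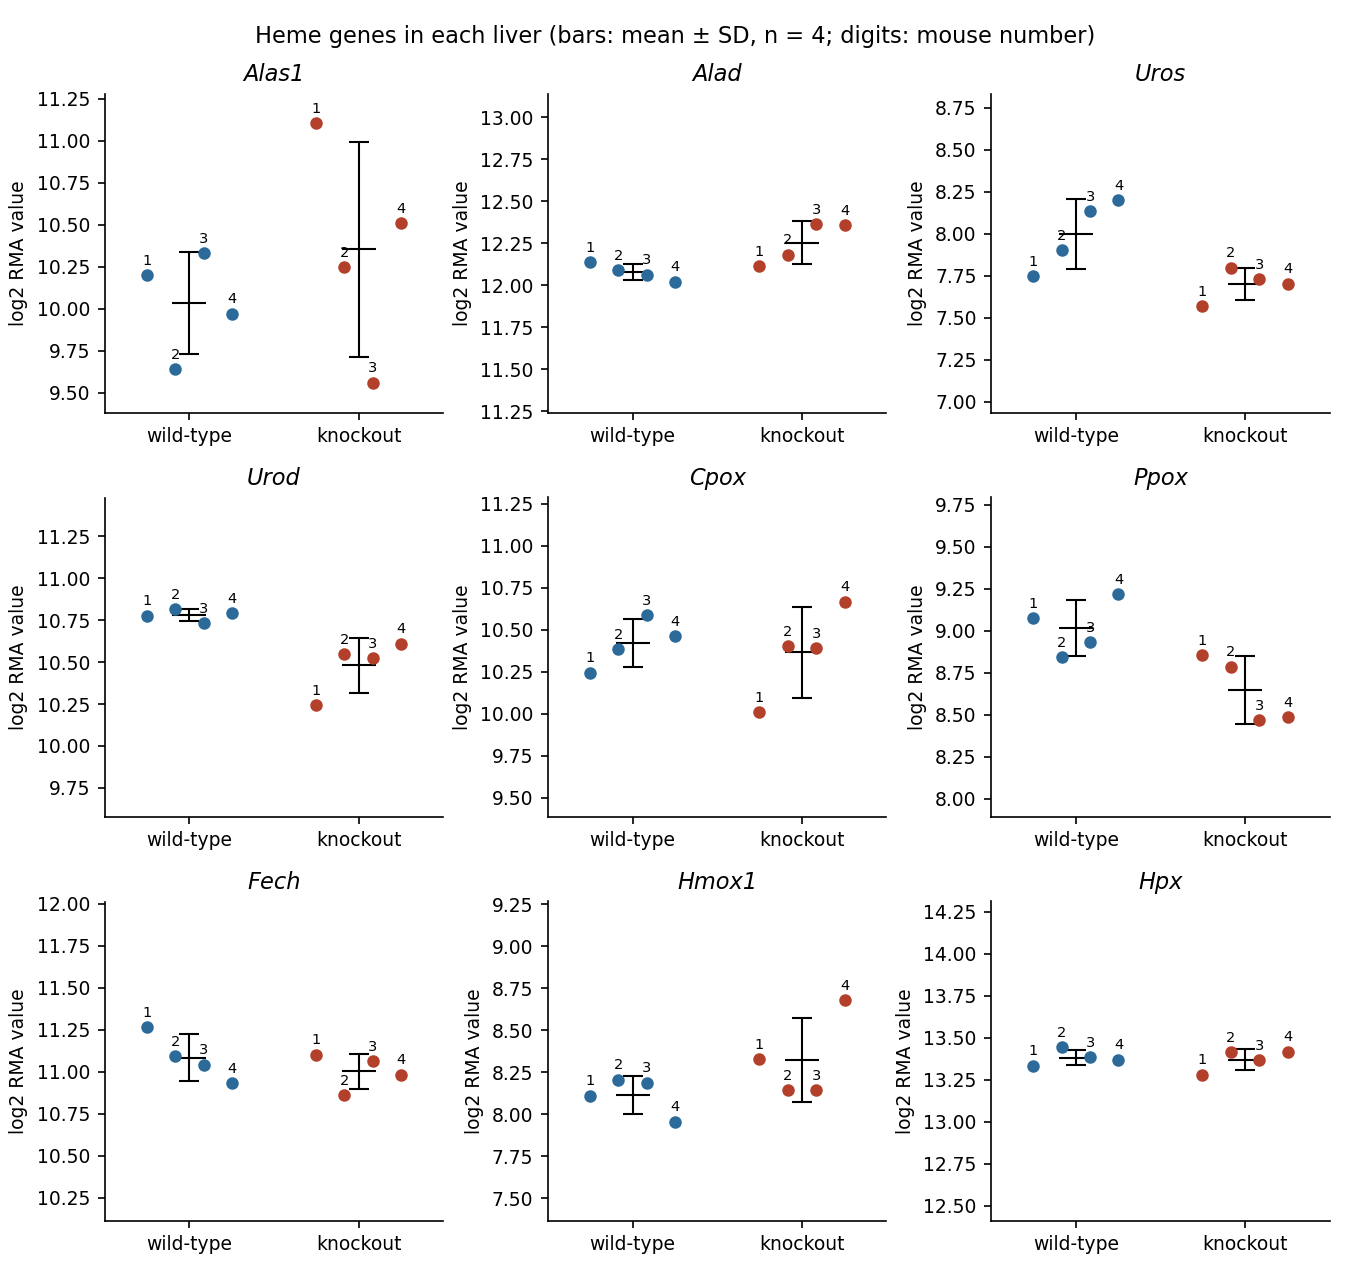
Log2 RMA value of each of the 9 heme genes in each liver, with wild-type mice in blue, knockout mice in red, the mouse number above each point and bars for the mean ± SD (n = 4). Every panel spans the same number of log2 units: Urod separates the groups, Alas1 spreads widest among the knockout mice, and Hpx lies between 13.28 and 13.44 in all 8 livers.

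Stretches of DNA before an annotated start of each of the 3 genes with an unadjusted p under 0.05 are shown. These genes lay on the same side. RefSeq windows of the build GRCm38.p6, from 250 bases before to 50 bases after an annotated start, were at hand for 7 of the 9 genes. Each sequence is the 120 bases before an annotated start, on the gene's own strand, 5′ to 3′. That start is not the outermost: the annotated genes reach further, to base 116994436 (Urod), 133710467 (Uros) and 171281193 (Ppox). The whole Uros stretch therefore lies inside the annotated gene. Capitals mark 3 motifs on either strand. The E-box has the letters CACGTG and is bound by factors of the MYC and USF families. The GC box, bound by SP1 and related factors, reads GGGCGG. The CCAAT box, bound by the factor NF-Y, is named by its own letters.
Urod, chr4:116994414-116994533, minus strand: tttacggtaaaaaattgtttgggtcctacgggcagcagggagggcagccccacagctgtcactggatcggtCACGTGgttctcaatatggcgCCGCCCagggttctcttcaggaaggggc
Uros, chr7:133709296-133709415, minus strand: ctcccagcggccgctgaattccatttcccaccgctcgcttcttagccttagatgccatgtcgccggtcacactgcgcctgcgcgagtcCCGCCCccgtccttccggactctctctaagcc
Ppox, chr1:171281187-171281306, minus strand: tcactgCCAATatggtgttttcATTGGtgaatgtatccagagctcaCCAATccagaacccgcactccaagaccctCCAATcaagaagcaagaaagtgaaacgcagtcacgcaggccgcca

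The stretches printed hold different sets of motifs in the 3 genes. With positions counted from the start, where -1 is the base before it, Urod has an E-box whose first base lies at -49 and a GC box at -28, and a further GC box runs across its start. Uros has a GC box at -32, and its window holds an E-box at the far edge, outside the stretch printed. Ppox has 4 CCAAT boxes in the stretch, at -114, -98, -74 and -45. Outside the stretches, the Urod window holds a CCAAT box at -171 and another GC box at 17. The Ppox window holds a GC box at 42, so a GC box occurs in the windows of all 3 genes. Searched on both strands, CACGTG was found in 7.15% of all 32851 windows and in windows of 3 of the 7 heme genes (Alad, Urod and Uros). CCAAT was found in 37.4% of all windows and in 4 of the 7 genes, and GGGCGG in 35.7% and in 5 of the 7. A gene may have several windows, a match is a description of letters, and none was tested for binding here.

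Alas1 is shown for another motif, GCGCATGC, the core of the site bound by NRF1, a regulator of nuclear genes for mitochondrial proteins. It was found in 2.71% of all windows and in 1 of the 7 genes. The 30 bases below lie 19 to 48 bases past the outermost annotated start of Alas1 and before its other annotated start. Capitals mark the core on both strands, which overlap because the letters form a palindrome.
Alas1, chr9:106247907-106247936, minus strand: ccgcacccaagGCGCATGCGCggcggtcac

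Alas1 stood at 11.10, 10.25, 9.56 and 10.51 in knockout mice 1 to 4 and at 10.20, 9.64, 10.33 and 9.97 in wild-type mice 1 to 4. Knockout mouse 1 was the highest and knockout mouse 3 the lowest of all 8 livers, so the wild-type range lay inside that of the knockout. The means were 10.35 ± 0.64 and 10.03 ± 0.30 (SD, n = 4), a difference of 0.32 ± 0.27 with a 95% interval of -0.27 to 0.91 (limma, adjusted p = 0.576). The difference rested on single livers: it was 0.07 ± 0.22 without knockout mouse 1 and 0.59 ± 0.21 without knockout mouse 3, with adjusted p of 0.905 and 0.252. Without wild-type mouse 2 it was 0.19 ± 0.28 (adjusted p = 0.785).

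The liver clock gene Nr1d1, whose product REV-ERBα senses heme, stood at 11.32 in knockout mouse 1 and at 11.36 in wild-type mouse 1, against 8.16 to 9.77 in the other livers. Knockout mouse 1 had the highest Alas1 value, whereas wild-type mouse 1, with Nr1d1 as high, stood inside its group at 10.20. With both mice numbered 1 left out, the difference of Alas1 was 0.13 ± 0.25 (limma, adjusted p = 0.841). The part of the clock in the spread of Alas1 was not tested. Against the control class with Cre and 1 floxed allele the difference was 0.09 ± 0.32, and against the class without Cre 0.55 ± 0.32, the control classes themselves differing by 0.46 ± 0.37 (limma fit of 3 groups, adjusted p of 0.551 or more).

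**Figure D2:**
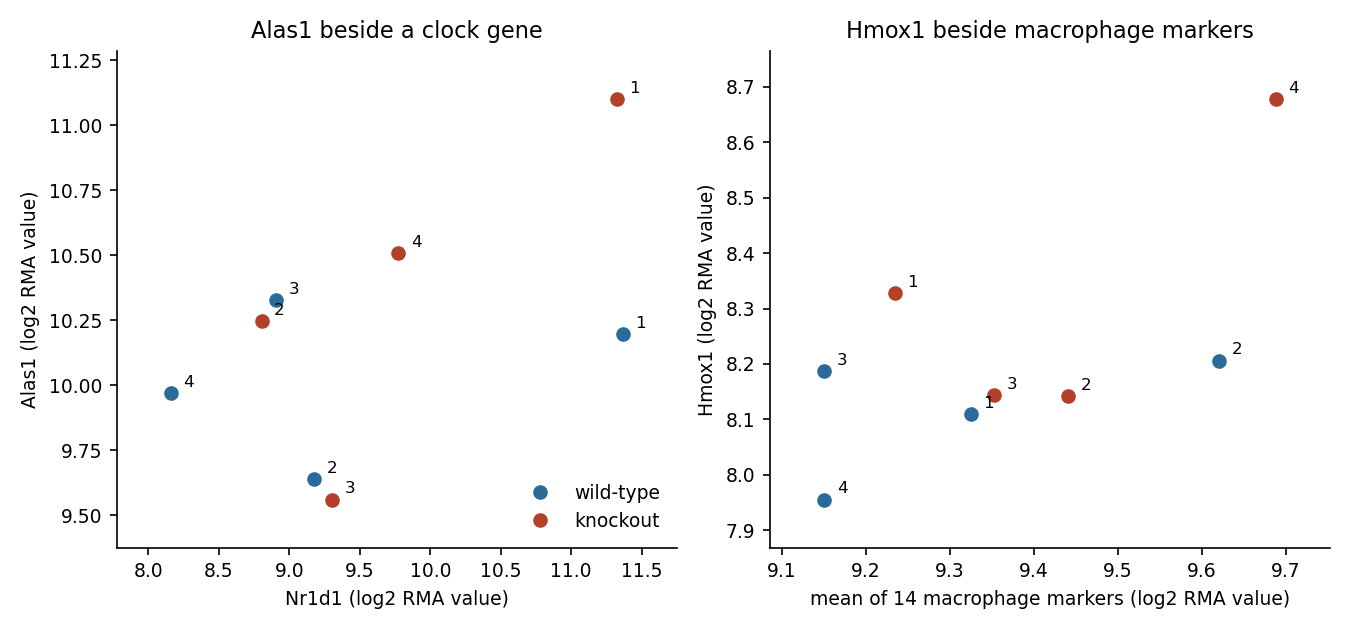
Left, Alas1 against the clock gene Nr1d1; right, Hmox1 against the mean of 14 macrophage markers, all as log2 RMA values, with 1 point a liver (wild-type in blue, knockout in red) and the mouse number beside it. Both mice numbered 1 lie far right in Nr1d1 and differ in Alas1, and knockout mouse 4 has the highest values on both axes of the right plot.

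Ppargc1a, a coactivator that induces Alas1 in fasted liver, stood at 9.81, 9.01, 9.22 and 9.44 in knockout mice 1 to 4 and at 8.63, 9.23, 8.60 and 8.92 in wild-type mice 1 to 4. Its groups overlapped in 1 wild-type liver, mouse 2, and its difference of 0.52 ± 0.18 did not pass (limma, adjusted p = 0.184). Without both mice numbered 1 the difference of Ppargc1a was 0.31 ± 0.17 (limma, adjusted p = 0.432). Among 15 measured regulators of Alas1 and Hmox1 none passed, 1 had an unadjusted p under 0.05, and the median difference was 0.02. Nr1d1 itself differed by 0.40 ± 0.65, and by 0.55 ± 0.29 without both mice numbered 1 (limma, adjusted p of 0.788 and 0.418). The heme-sensing repressor Bach1, which acts on Hmox1, differed by -0.07 ± 0.11, and Foxo1, another inducer of Alas1, by 0.15 ± 0.11. Lonp1, a mitochondrial protease that degrades Alas1 protein, differed by 0.15 ± 0.12.

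Alad, which joins the products of Alas1 into a pyrrole, lay on the higher side. Its values were 12.11, 12.18, 12.36 and 12.36 in knockout mice 1 to 4 and 12.14, 12.09, 12.06 and 12.02 in wild-type mice 1 to 4. Of the knockout livers 3 exceeded every wild-type liver, and knockout mouse 1 fell below wild-type mouse 1. The difference was 0.18 ± 0.08, a 1.13-fold difference with a 95% interval of -0.003 to 0.36 (limma, unadjusted p = 0.0535, adjusted p = 0.308). Without both mice numbered 1 the difference was 0.24 ± 0.09 (limma, unadjusted p = 0.0225, adjusted p = 0.262).

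Uros closes the ring of the porphyrin. It stood at 7.57, 7.80, 7.73 and 7.70 in knockout mice 1 to 4 and at 7.75, 7.90, 8.13 and 8.20 in wild-type mice 1 to 4. The groups overlapped in a single pair, knockout mouse 2 lying above wild-type mouse 1. The difference was -0.30 ± 0.11, with a 95% interval of -0.53 to -0.06 (limma, unadjusted p = 0.018, adjusted p = 0.203).

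Urod, the last cytosolic enzyme, trims the side chains of the ring. It was the most even gene of the wild-type group, at 10.78, 10.82, 10.73 and 10.79 in mice 1 to 4, and stood at 10.24, 10.55, 10.52 and 10.61 in knockout mice 1 to 4. All 4 knockout livers lay below all 4 wild-type livers. The means were 10.48 ± 0.16 and 10.78 ± 0.04 (SD, n = 4), a difference of -0.30 ± 0.09 with a 95% interval of -0.49 to -0.10 that put the knockout at 81.3% of the wild-type level. It did not pass (limma, unadjusted p = 0.00658, adjusted p = 0.139). Without knockout mouse 1 the difference was -0.22 ± 0.07, with adjusted p = 0.221.

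Cpox, which works between the mitochondrial membranes, stood at 10.01, 10.40, 10.39 and 10.67 in knockout mice 1 to 4 and at 10.24, 10.38, 10.59 and 10.46 in wild-type mice 1 to 4. Knockout livers gave both the lowest and the highest value. The difference was -0.05 ± 0.13, with a 95% interval of -0.34 to 0.23 (limma, adjusted p = 0.870). It was 0.07 without knockout mouse 1 and -0.15 without knockout mouse 4, so it had no settled direction.

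Ppox, which oxidises the ring to protoporphyrin, had the largest difference of the enzymes that lay lower. Its values were 8.85, 8.79, 8.47 and 8.48 in knockout mice 1 to 4 and 9.07, 8.84, 8.93 and 9.22 in wild-type mice 1 to 4. The groups touched in 1 pair, knockout mouse 1 exceeding wild-type mouse 2 by little. The difference was -0.37 ± 0.12, or 77.4% of the wild-type level, with a 95% interval of -0.62 to -0.11 (limma, unadjusted p = 0.00853, adjusted p = 0.155). Without knockout mouse 4 it was -0.31 ± 0.12 (adjusted p = 0.220), and without both mice numbered 1 it was -0.42 ± 0.13 (adjusted p = 0.206).

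Fech, which inserts iron into the ring, stood at 11.10, 10.86, 11.06 and 10.98 in knockout mice 1 to 4 and at 11.27, 11.09, 11.04 and 10.93 in wild-type mice 1 to 4. The groups overlapped over most of their range. The difference was -0.08 ± 0.09, with a 95% interval of -0.28 to 0.12 (limma, adjusted p = 0.681). Its interval does not reach the difference measured for Ppox, whereas that of Alas1 holds a larger difference than that in the higher direction. The intervals of Fech and Ppox overlap, and the genes were not tested against each other.

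The mean of 11 measured hepatocyte markers was 13.118 to 13.1664 in knockout livers and 13.1735 to 13.2008 in wild-type livers. The groups did not overlap in this mean, by a small margin, and no marker passed the threshold. In RNA of whole liver, fewer cells of a type and less RNA per cell cannot be told apart. Of these markers 4 lay higher and 7 lower, with a median difference of -0.01 and a summed level of 16.76 to 16.77 in knockout and 16.77 to 16.79 in wild-type livers. Most of them lie near the top of the table's range. Serpina1a, a protease inhibitor gene below that range, had group means of 11.16 for the knockout and 11.48 for the wild-type, with groups that did not overlap and a difference of -0.32 ± 0.12 (limma, adjusted p = 0.226). Without knockout mouse 4 the difference of Serpina1a was -0.19 ± 0.08 (adjusted p = 0.250). Fgb, a fibrinogen chain, stood at -0.09 ± 0.07 with groups that did not overlap (limma, adjusted p = 0.525). The part of hepatocyte content in the values of Urod, Uros and Ppox was not tested.

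Hmox1 stood at 8.33, 8.14, 8.14 and 8.68 in knockout mice 1 to 4 and at 8.11, 8.21, 8.19 and 7.96 in wild-type mice 1 to 4. Knockout mice 1 and 4 exceeded every wild-type liver and the other knockout livers lay within the wild-type range. The difference was 0.21 ± 0.12, with a 95% interval of -0.06 to 0.47 (limma, adjusted p = 0.410). Without knockout mouse 4 it was 0.09 ± 0.09, and 0.08 ± 0.10 once the Y-linked level entered the fit as a covariate, with adjusted p of 0.630 and 0.703.

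Kupffer cells, the macrophages of liver, also express Hmox1. All 14 listed macrophage markers were measured and none passed. On the higher side were 12 of them, beside 12676 of all 22180 genes and 4936 of the brighter 11090. The markers had a median difference of 0.11 and a summed level of 13.53 to 13.89 in knockout and 13.38 to 13.79 in wild-type livers. Cd68 stood at 9.96 ± 0.01 against 9.60 ± 0.18 (SD, n = 4), a difference of 0.36 ± 0.09 (limma, adjusted p = 0.0921), and its groups did not overlap, which held for 5.26% of all genes in this direction. C1qc, a complement chain, differed by 0.26 ± 0.09 (adjusted p = 0.209). Without knockout mouse 4 the markers had 9 on the higher side and a median of 0.04, and without both mice numbered 1 the median was 0.18. The mean of the markers was highest in knockout mouse 4, at 9.69, and next in wild-type mouse 2, at 9.62, the livers with the highest Hmox1 of their groups. Knockout mouse 1, second in Hmox1, had the lowest marker mean of its group, at 9.23. The part of macrophages in Hmox1 was not tested.

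Hmox1 is also a target of NRF2, the factor of the oxidative stress response. Of 11 measured NRF2 targets none passed, and the median difference was -0.09. Those with the smallest adjusted p lay lower: the quinone reductase gene Nqo1 at -0.36 ± 0.12 and the glutathione transferase gene Gstm1 at -0.26 ± 0.11 (limma, adjusted p of 0.166 and 0.282).

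Hpx was nearly level, at 13.28, 13.41, 13.37 and 13.42 in knockout mice 1 to 4 and at 13.33, 13.44, 13.38 and 13.37 in wild-type mice 1 to 4. The difference was -0.01 ± 0.07, with a 95% interval of -0.17 to 0.14 (limma, adjusted p = 0.951). The highest value of the whole table was 13.88, and whether the bright probe set of Hpx neared an upper limit was not tested. Haptoglobin, Hp, which binds free hemoglobin, differed by -0.16 ± 0.07, and its receptor gene Cd163 by -0.13 ± 0.10 (limma, adjusted p of 0.280 and 0.523). None of 5 scavenging genes passed, with a median of -0.05. Hpx and Hp are acute phase genes, and of 17 measured genes of that list none passed, 13 lay lower and the median was -0.09. Lcn2, an iron-chelating acute phase protein, lay the other way at 0.45 ± 0.11 (limma, adjusted p = 0.0713), with groups that did not overlap. Apcs, serum amyloid P, also lay higher, at 0.32 ± 0.10 (adjusted p = 0.164).

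**Figure D3:**
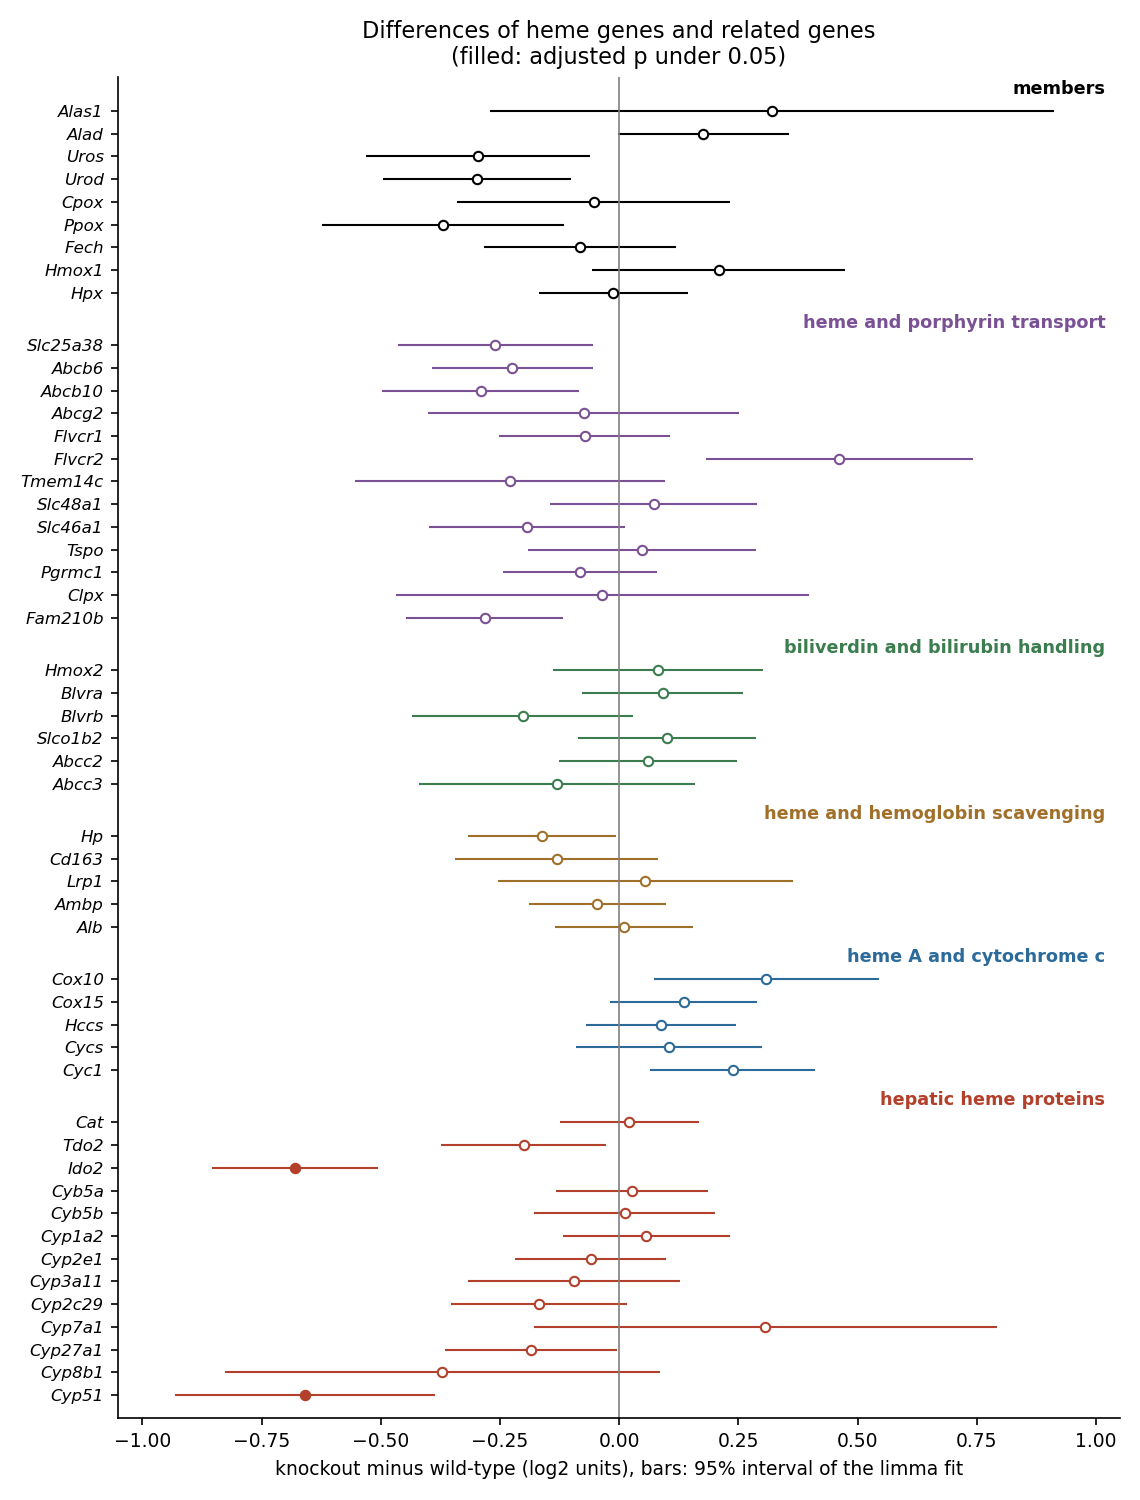
Difference between knockout and wild-type livers in log2 units for the 9 heme genes and 5 lists of related genes, with bars for the 95% interval of the limma fit and filled points for genes past the threshold. Ido2 and Cyp51 are the filled points, and the 5 genes of heme A and cytochrome c all lie right of 0.

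The 10 pathway lists, which also hold regulators, NRF2 targets and acute phase genes, gave 2 calls among 98 measured genes. Both calls were lower and made 2.04%, beside 0.433% of all genes called higher and 0.717% called lower. They came from the list of hepatic heme proteins, so that both are heme proteins follows from the list. Ido2, which opens tryptophan toward kynurenine, stood at 9.77, 9.65, 9.86 and 9.62 in knockout mice 1 to 4 and at 10.33, 10.43, 10.44 and 10.41 in wild-type mice 1 to 4. Its groups lay far apart, and it fell by 0.68 ± 0.08 (limma, adjusted p = 0.00383). Cyp51, the P450 of cholesterol synthesis, fell by 0.66 ± 0.12 (limma, adjusted p = 0.0334), a call that ended when any 1 of 7 arrays was left out (adjusted p of 0.0520 to 0.103) but not without knockout mouse 3 (0.0258). Both calls were lost with either control class alone, where 2 control mice stood in place of 4. The differences there were -0.66 and -0.70 for Ido2 and -0.65 and -0.67 for Cyp51, against Cre-carrying and Cre-free controls in that order (limma, adjusted p of 0.0859 and 0.0643 for Ido2, and 0.248 and 0.204 for Cyp51).

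The other 11 of 13 measured hepatic heme proteins did not pass, and the median of the list was -0.10. Catalase, Cat, which clears hydrogen peroxide, differed by 0.02 ± 0.07, the drug-metabolising P450 gene Cyp2e1 by -0.06 ± 0.07 and Cyp1a2 by 0.06 ± 0.08. Tdo2, the main tryptophan dioxygenase of liver, stood at -0.20 ± 0.08 with groups that did not overlap (limma, adjusted p = 0.238).

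Of 13 measured genes of heme and porphyrin transport none passed, 10 were on the lower side and the median difference was -0.08. Of all genes 42.8% were on the lower side, and of the brighter 11090 genes 55.5%. An unadjusted p under 0.05 was reached by 5 of the 13, beside 16.7% of all genes, with 4 of the 5 lower and Flvcr2 higher, and by 3 of the 13 without both mice numbered 1. Fam210b, a mitochondrial protein linked to heme synthesis in red cell precursors, stood at 9.48, 9.47, 9.40 and 9.31 in knockout mice 1 to 4 and at 9.74, 9.62, 9.76 and 9.66 in wild-type mice 1 to 4. Its groups did not overlap, with a difference of -0.28 ± 0.07 (limma, adjusted p = 0.101). Flvcr2, of a family of heme exporters and since described as a choline transporter, lay the other way at 0.46 ± 0.13 (limma, adjusted p = 0.110). An unadjusted p under 0.05 on the higher side was reached by 8.61% of all genes. Slc25a38, which brings glycine into mitochondria for Alas1, stood at -0.26 ± 0.09, and the mitochondrial transporter Abcb10 at -0.29 ± 0.09 (limma, adjusted p of 0.200 and 0.166).

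Supply of the substrates showed no call. Among 10 measured genes of glycine and succinyl-CoA supply the median was 0.03, and Ogdh, the first subunit of the dehydrogenase complex that makes succinyl-CoA, had the smallest adjusted p, with a difference of 0.27 ± 0.07 and groups that did not overlap (limma, adjusted p = 0.107). Pccb, a subunit of the carboxylase that feeds propionate toward succinyl-CoA, stood at -0.13 ± 0.08 (adjusted p = 0.402). Of 4 measured genes of mitochondrial iron supply none passed, with a median of -0.10. The ferredoxin gene Fdx1 stood at -0.23 ± 0.10 and the scaffold gene of iron-sulfur clusters, Iscu, at -0.10 ± 0.07 (limma, adjusted p of 0.289 and 0.519).

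Heme A, the form carried by cytochrome c oxidase, is made from heme by Cox10 and Cox15. Cox10 stood at 9.14, 8.70, 9.04 and 8.90 in knockout mice 1 to 4 and at 8.45, 8.72, 8.73 and 8.64 in wild-type mice 1 to 4. Knockout mouse 2 lay inside the wild-type range and the other 3 above it, with a difference of 0.31 ± 0.11 (limma, adjusted p = 0.190). Without both mice numbered 1 the difference of Cox10 was 0.18 ± 0.10 (adjusted p = 0.450). Cox15 differed by 0.14 ± 0.07 with groups that did not overlap (adjusted p = 0.360). Cyc1, cytochrome c1 of complex III, differed by 0.24 ± 0.08, also without overlap (adjusted p = 0.170). Cycs, cytochrome c itself, differed by 0.10 ± 0.09, and Hccs, which attaches heme to it, by 0.09 ± 0.07. All 5 genes lay higher and none passed, with a median of 0.14. Beside them, 12676 of all 22180 genes and 4936 of the brighter 11090 lay higher.

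Of the genes past Hmox1, 6 were measured and none passed, with a median of 0.07. Hmox2, the constitutive heme oxygenase, differed by 0.08 ± 0.10 and the biliverdin reductase gene Blvra by 0.09 ± 0.08. Blvrb, a second biliverdin reductase, stood at -0.20 ± 0.11 with groups that did not overlap (limma, adjusted p = 0.363). The bilirubin uptake carrier Slco1b2 differed by 0.10 ± 0.08, the canalicular exporter Abcc2 by 0.06 ± 0.09 and Abcc3, an exporter toward blood, by -0.13 ± 0.13.

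Red cell precursors also make heme. Of 14 listed erythroid markers 5 were measured, none of them a globin gene or Alas2, and none passed, with a median difference of -0.01 and a summed level of 8.52 to 8.75 in knockout and 8.47 to 8.69 in wild-type livers. Klf1, the erythroid factor, stood at 6.85 and 6.98 and Slc4a1, the anion exchanger of the red cell membrane, at 7.18 and 7.17 in knockout and wild-type livers. Epb42, a protein of the red cell membrane skeleton, differed by 0.12 ± 0.09 (adjusted p = 0.544). Of 8 lymphocyte markers measured none passed, all 8 were on the higher side, 3 had an unadjusted p under 0.05 and the median was 0.25. Without knockout mouse 4 all 8 stayed on the higher side, 1 had an unadjusted p under 0.05 and the median was 0.19 (limma). On the higher side were 12676 of all 22180 genes and 4936 of the brighter 11090. Of all genes 8.61% had an unadjusted p under 0.05 on that side. By these counts the dimmer genes lay higher more often than the brighter ones. Several lymphocyte markers, among them Klrb1c, Cd3d and Ms4a1, lay near or below the array medians, so the brighter genes are no match for them. Whether the lymphocyte markers differ from genes of like brightness was not tested. The summed level of the lymphocyte markers was 9.28 to 9.52 in knockout and 9.09 to 9.20 in wild-type livers. Cd3e, a chain of the T cell receptor complex, differed by 0.37 ± 0.12 with groups that did not overlap, and the B cell gene Ms4a1 by 0.28 ± 0.12 (limma, adjusted p of 0.155 and 0.251). Cholangiocyte markers had medians on the higher side at 0.12, with 5 measured, and stellate and endothelial markers at 0.03, with 10 measured and none past the threshold in either list. The smallest adjusted p were those of Sox9 (-0.29 ± 0.13, adjusted p = 0.279) and Krt19 (0.12 ± 0.08, adjusted p = 0.511) among the former, and of Lyve1 (0.37 ± 0.14, adjusted p = 0.212, and 0.20 ± 0.12 without both mice numbered 1) and Reln (-0.18 ± 0.09, adjusted p = 0.332) among the latter. The part of these cells in the heme genes was not tested.

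**Figure D4:**
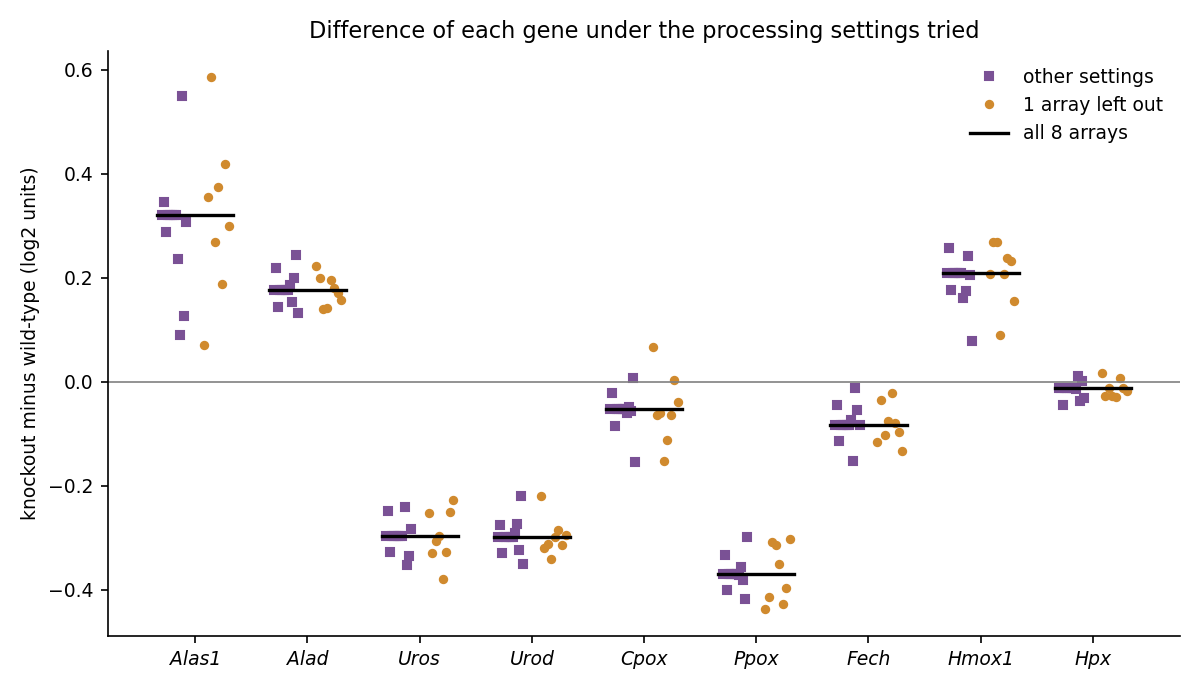
Knockout minus wild-type difference in log2 units of each heme gene under the settings tried, with a black line for all 8 arrays, orange points for 1 array left out and purple squares for other settings. Uros, Urod and Ppox stay below 0 and Alas1, Alad and Hmox1 above 0 at every point, while Cpox and Hpx have points on both sides. Some squares repeat the difference of all 8 arrays, because their settings could not change it.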

How the data were processed

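Liver RNA of 8 mice was measured on Affymetrix whole-transcript arrays, 1 a mouse. The authors deposited RMA values, and the submitters' processing notes name the oligo package, version 1.24. These deposited values were read as log2 because RMA returns log2 values and they ran from 1.28 to 13.88. The chip definition was not given in the sources used here.

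Of 39137 probe sets, 23521 had 1 gene symbol in the platform annotation, 1814 several and 13802 none. Probe sets with 1 symbol were kept, the brightest on average for each gene, which left 22180 genes. Groups came from the titles. The test across all genes was limma's moderated test (version 3.58.1, with R version 4.3.3), with group as the single term, and it was tested on simulated data. A second fit had 3 groups by genotype label. Precision is limited by 4 arrays a group, and p-values measure the spread between these mice.

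The 9 genes and the 10 pathway and 6 cell type lists were chosen with earlier results of these data known, and lists are described by counts and medians only. Genes named are the 9, Sco1, list genes past the threshold or otherwise the 2 of smallest adjusted p, all genes of the heme A and bilirubin lists, and the 3 genes most like Alas1. Others, among them regulators, clock genes, markers and the heme proteins that did not pass, were named for their role after their values were seen. Motifs were chosen after the windows were seen. The alternatives changed the variance model (trended and robust), the scaling (quantile normalization run again, or centring), the genes kept (2 filters on dim genes), the use of probe sets (their mean, or every one), the weights of arrays, a block for the mouse number, the control class, and which array was left out. Leaving out both mice numbered 1 and a Y-linked covariate were chosen after seeing the data. Same-numbered mice correlated at -0.10 to 0.27 in their deviations from group means, so the numbers were not used as pairs. Python version 3.11.15, pandas version 2.3.3 and matplotlib version 3.10.9 were used for sequences and plots.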

Additional observations from a re-analysis of the deposited data

How the results depend on the processing

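None of the 9 heme genes passed the threshold under any of 21 alternative settings, the lowest adjusted p being 0.0830 for Urod among the brighter 11090 genes and 0.0916 for Ppox with arrays centred on their median. Of 189 differences, 182 kept their sign. The variance model, the filters on dim genes, the use of probe sets and the mouse block left each difference unchanged. In those settings the sign could not move, so the count overstates how far the signs were tried. With 1 array left out, Cpox ranged from -0.1527 to 0.0664, turning positive without knockout mouse 1 or wild-type mouse 3, and Hpx from -0.0285 to 0.0179, turning positive without knockout mouse 1 or wild-type mouse 2. Without both mice numbered 1, Cpox was 0.00808 and Hpx 0.00161, and with Cre-carrying controls alone Hpx was 0.0117. None of the differences that changed sign exceeded its SE. Sco1 passed with the trended robust variance (-0.41, adjusted p = 0.0464) and with either filter on dim genes (-0.41, adjusted p = 0.0360 and 0.0411).

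Counts of genes past the threshold, 96 higher and 159 lower, moved more. They were 159 and 300 with the trended robust variance, 60 and 230 with centring, 123 and 319 in the brighter 11090 genes, 155 and 301 without the dimmest genes (16635 kept), 17 and 25 over all probe sets, 131 and 245 with array weights, 4 and 2 with Cre-carrying controls alone, 7 and 9 with Cre-free controls alone, 28 and 37 without both mice numbered 1, and 45 and 106 with the Y-linked covariate. With 1 array left out they ranged from 29 to 65 higher and 60 to 119 lower. Centring moved the median of all genes from 0.03 to -0.01. Among the 98 list genes, 0 were higher and 2 lower. Higher calls became 2 with the trended variance (Lcn2 and Ogdh) and 1, Lcn2, with either filter or array weights. Lower calls became 1, Ido2, over all probe sets, without both mice numbered 1 or with the Y-linked covariate, 0 with either control class alone, and 1 to 2 with 1 array left out.

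With mouse number as a replicate block the counts were 68 and 142, and no heme gene passed (adjusted p of 0.174 or more; Sco1 -0.41, adjusted p = 0.0672). The same-numbered mouse was the closest match for 1 of 4 numbers. The numbers mark no stated pairing. The cause of these shifts was not tested.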

Other observations

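The genes whose standardized profile over the 8 livers came closest to that of Alas1 were Efcab6, Marchf7 and 4930556L07Rik, with root mean square differences of 0.27, 0.27 and 0.30 SD units. Marchf7, a ubiquitin ligase gene, stood at 9.07, 8.77, 8.52 and 8.87 in knockout mice 1 to 4 and at 8.87, 8.52, 8.82 and 8.59 in wild-type mice 1 to 4. As with Alas1, knockout mouse 1 was the highest and knockout mouse 3 among the lowest. Its difference was 0.11 ± 0.12 (SE, n = 4 each), and none of the 3 genes passed the threshold (limma with Benjamini-Hochberg adjustment, adjusted p of 0.575 or more). A likeness ranked over 22180 genes and 8 livers is a description only.

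No heme gene had a liver that stood apart from its group of 4 by Dixon's criterion, which was computed for 20 groups with Sco1 included. With 4 values the criterion asks for a gap above 0.829 of the group's range, so it seldom marks a liver. It does not address differences that rest on single livers, such as that of Alas1.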
